A study of Homo sapiens with 2 samples.

Results

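The 58 genes described here encode the mTOR kinase, the subunits of its complexes, the proteins that report nutrients and growth factors to it and some of its substrates. They were chosen by function from a list of gene symbols, and a peak belonged to one of them when the deposited annotation named it as the nearest gene. By that rule 32 of the 58 genes received 55 of the 21440 peaks of a chromatin immunoprecipitation and sequencing (ChIP-seq) experiment against mTOR itself. With peaks that lay inside a gene but were assigned to another, 35 of the 58 had a peak. The share of protein-coding genes under this joint rule was not counted. The chromatin came from MDA-MB-231 cells, an established line from a triple-negative breast cancer, kept in DMEM with serum and penicillin-streptomycin. No treatment or change of genotype is labelled for either library. The series had 1 library enriched with an mTOR antibody from Abcam and 1 input library of unenriched chromatin from the same line, which served as the control for calling peaks. The series title concerns the control of ribosomal genes and senescence, and places mTOR in the nucleus with PML and with RONIN, a zinc finger transcription factor.

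Neither library had a replicate, so nothing below carries a test between conditions, and the intervals are exact Clopper-Pearson 95% intervals that cover counting error only. The peak list gives no read counts, and the depth is therefore unknown. Peaks had a median width of 400 bp. Each peak carries a deposited score, a whole number of 13 or more with a median of 61 over all peaks. This score is the authors' value, its scale is not stated, and it serves here only to rank peaks within the list. Positions are on the hg38 build.

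The mTOR kinase works in a pair of complexes. In mTORC1 it is joined by Raptor (RPTOR), which brings in substrates, and in mTORC2 by Rictor (RICTOR) and SIN1 (MAPKAP1). Amino acids act on mTORC1 at the lysosome, where the Ragulator complex anchors Rag GTPases that recruit the kinase, GATOR1 switches the Rags off and GATOR2 restrains GATOR1. Growth factors act through PI3 kinase and AKT, which relieve the TSC complex, the brake on the small GTPase RHEB. Active mTORC1 phosphorylates S6 kinases and 4E-BPs and so promotes translation, above all of ribosomal protein messages.

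Promoter peaks, meaning assigned peaks that reached within 1 kb of the start site, were found at 18 of the 58 genes (31.0%, interval 19.5 to 44.5%). Of all 19974 protein-coding genes 15.5% had one. In order of score these were FLCN, TSC1, SEH1L, WDR24, LAMTOR2, WDR59, AKT1S1, LARP1, TTI1, STK11, MLST8, RPTOR, RPS6KB2, AKT2, LAMTOR1, SEC13, FNIP2 and TELO2. The list was chosen with earlier results of these data known, so the share is given as a description and was not tested against the other genes. Scores of these promoter peaks ran from 21 to 440, within a range of 13 to 4542 over protein-coding genes. The best promoter peak of a gene had a median score of 70 over the 18 genes and 58 over the 3097 protein-coding genes with a promoter peak, and 10 of the 18 lay above the median of all genes. FLCN ranked 77 among those 3097 genes, TSC1 211 and SEH1L 253, whereas TELO2 ranked 2914.

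**Figure D1:**
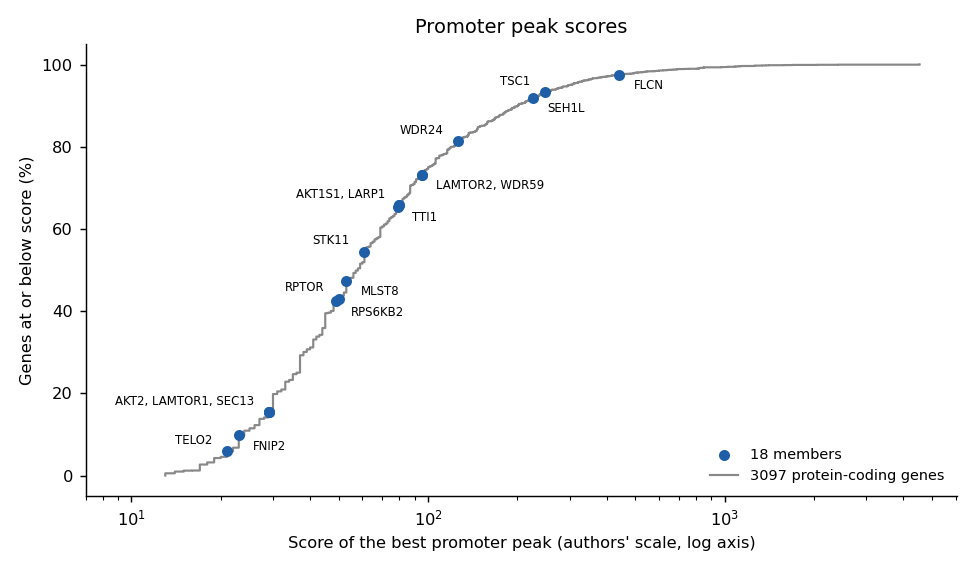
Cumulative distribution of the best promoter peak score per gene: blue points are the 18 pathway genes with a promoter peak and the grey line all 3097 protein-coding genes with one, on a log score axis. The pathway genes lie between TELO2 at 21 and FLCN at 440, while the line runs from 13 to 4542.

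With windows of 100 bp, windows of 5 kb and the deposited promoter class in place of the 1 kb window, 15, 20 and 14 of the 58 genes had a promoter peak, against 10.9, 20.3 and 12% of protein-coding genes. Among the 10720 higher-scoring peaks 10 of the 58 genes kept one, against 7.45% of protein-coding genes. Among the 2144 top-scoring peaks 3 of the 58 did, FLCN, TSC1 and SEH1L, against 1.57%. Without peaks that carry a repeat label all 18 of the 58 remained (31%), as none of their promoter peaks had one, against 15.1% of protein-coding genes. Each of these counts is a larger share of the 58 than the percent beside it, and these shares were not tested.

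By any peak, with no limit of distance, 32 of the 58 genes (55.2%) were named as nearest gene, against 41.7% of protein-coding genes. With the 10720 and the 2144 higher-scoring peaks these were 19 and 4 genes, against 26.7 and 7.01% of protein-coding genes, shares of the same order as the background. Without repeat peaks they were 22 of the 58, against 23.1% of protein-coding genes, and within 10 kb 23 of the 58, against 24.2%. These last counts are larger shares of the 58 than the percents beside them. A peak centre inside the gene was present for 26 of the 58 (44.8%), against 28.9% of protein-coding genes. The pathway genes were also longer, with a median of 45.0 kb, against 24.2 kb over protein-coding genes, and the part of length in these shares was not tested. Per 100 kb of gene the density was 0.996 peaks in the pathway genes and 0.784 in protein-coding genes.

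Counts by complex rest on few genes each. GATOR2 had a promoter peak at 4 of 5 genes (28.4 to 99.5%), while GATOR1, the Rag GTPases, the Sestrins, PI3 kinase and the subunits particular to mTORC2 had none among 3, 4, 3, 3 and 4 genes. The share over all protein-coding genes, 15.5%, lies inside the intervals for 0 of 3 (up to 70.8%) and 0 of 4. A peak at the start of NPRL2, a GATOR1 gene, was assigned to a neighbour and is not counted here. Both genes particular to mTORC1 had a promoter peak. The intervals for 2 of 2 (15.8 to 100%) and for 0 of 4 (up to 60.2%) overlap, and the difference between mTORC1 and mTORC2 was not tested.

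**Figure D2:**
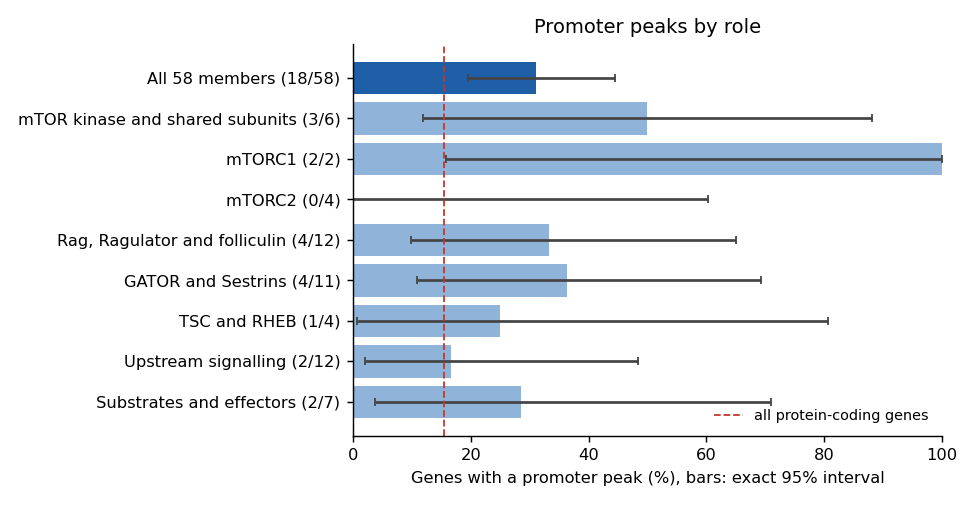
Share of genes with a promoter peak for all 58 members and for the 8 roles they were grouped in, with the counts in the labels, exact 95% intervals as bars and the share over all protein-coding genes (15.5%) as a dashed line. Intervals are wide in every role, and the interval of each single role except mTORC1 includes the dashed line.

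Among the kinase and the subunits both complexes share, MLST8, which binds and stabilises the kinase domain, had a peak of score 53 over its start (chromosome 16, 2205163 to 2205689). MTOR itself had none at its start. DEPTOR, an inhibitor bound to mTOR in either complex, had 2 peaks in intron 4, of scores 61 and 51, centred 91.9 and 110.9 kb from the start. The TTT complex helps to assemble mTOR and related kinases. Its genes TTI1 and TELO2 had promoter peaks of 79 (chromosome 20, 38033142 to 38033474) and 21 (chromosome 16, 1493072 to 1493455). TTI1 also carried 3 intronic peaks, of 85, 69 and 68, so its promoter peak was not its highest.

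In mTORC1, RPTOR had a peak of score 50 centred 8 bp downstream of its start (chromosome 17, 80544642 to 80545051). AKT1S1 encodes PRAS40, an mTORC1 subunit that restrains the complex until AKT phosphorylates it. Its peak had a score of 80 and lay 33 bp from the start (chromosome 19, 49876857 to 49877787). In mTORC2, RICTOR had 3 assigned peaks and no promoter peak. They had scores of 84, 76 and 13 and were centred at -15.6, 34.3 and -28.1 kb from the start, the second of them in intron 2. MAPKAP1, PRR5 and PRR5L, the other mTORC2 subunits, had no peak.

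In the lysosomal machinery the highest score belonged to FLCN. Its product folliculin, with FNIP1 or FNIP2, is a GTPase-activating protein for RagC and RagD. The FLCN peak had a score of 440 and covered 1339 bp on chromosome 17 (17237113 to 17238451), with its centre at -614 bp, upstream of the assigned start. FNIP2 had a promoter peak of only 23, and FNIP1 had 3 peaks of 59, 37 and 27 that were all away from its start. Of the 5 Ragulator genes, LAMTOR2 had a peak of 95 centred exactly on the start (chromosome 1, 156054525 to 156055039) and LAMTOR1 a peak of 29 centred 177 bp downstream. LAMTOR3, LAMTOR4 and LAMTOR5 had none. Of the Rag genes, RRAGC and RRAGD had 1 intronic peak each, with scores of 48 and 77, and RRAGA and RRAGB had none.

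Amino acid signals pass to the Rags through the GATOR complexes. GATOR2 genes had promoter peaks with scores of 225 for SEH1L (chromosome 18, 12948050 to 12949561), 126 for WDR24 (chromosome 16, 689974 to 690662), 95 for WDR59 (chromosome 16, 74984542 to 74984996) and 29 for SEC13 (chromosome 3, 10320805 to 10321127). SEH1L and SEC13 are also subunits of the nuclear pore. The SEH1L peak was centred 794 bp downstream in intron 1 and reached to 38 bp from the start. The WDR59 promoter peak was the only one of the 55 labelled as a CpG island (1.82%, against 2.88% of all peaks). A peak without this label is not thereby shown to lie outside a CpG island. MIOS was the GATOR2 gene without a peak. The GATOR1 genes DEPDC5, NPRL2 and NPRL3 and the Sestrins, which sense leucine or stress and bind GATOR2, had no peak assigned to them.

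On the growth factor branch, TSC1 had a peak of 248 over its start (chromosome 9, 132944532 to 132945546), the second highest score at a member promoter. Its partner TSC2, the GTPase-activating subunit for RHEB, had only an intronic peak of 45 over an L1MB8 element. TBC1D7, the third subunit of the complex, had none, and RHEB had 1 peak of 23, centred at -10.1 kb over an AluJb element. STK11 encodes LKB1, the kinase that activates AMPK under energy stress. It had 2 peaks that reached the window, with scores of 61 and 23 centred at 789 and -941 bp (chromosome 19, 1206447 to 1206730 and 1204730 to 1204986). These were the members nearest to the limit on the inside, and the next peak outside it, also of STK11, had a score of 25 centred at 2047 bp. AKT2 had a promoter peak of 29 (chromosome 19, 40285061 to 40285310), while AKT1 and PDPK1, which encodes the kinase upstream of AKT, had none.

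Among substrates, LARP1, which binds messages that begin with a terminal oligopyrimidine tract, had 5 assigned peaks, the most of any member. A peak of 80 covered its start (chromosome 5, 154682152 to 154683721), and a second of 69 lay at the start of an alternative transcript (154754830 to 154755394). RPS6KB2, the gene of the S6 kinase S6K2, had a peak of 49 centred at -235 bp (chromosome 11, 67428047 to 67428472). RPS6KB1, EIF4EBP1 and EIF4EBP2, the genes of the more studied S6 kinase and of the translation inhibitors 4E-BP1 and 4E-BP2, had no promoter peak. Over the pathway 3 of the 12 kinase genes, STK11, RPS6KB2 and AKT2, had a promoter peak (25%, 5.49 to 57.2%). Of the 46 other members 15 had one (32.6%, 19.5 to 48%), and of all protein-coding genes 15.5%. The 2 intervals overlap, and the difference was not tested.

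**Figure D3:**
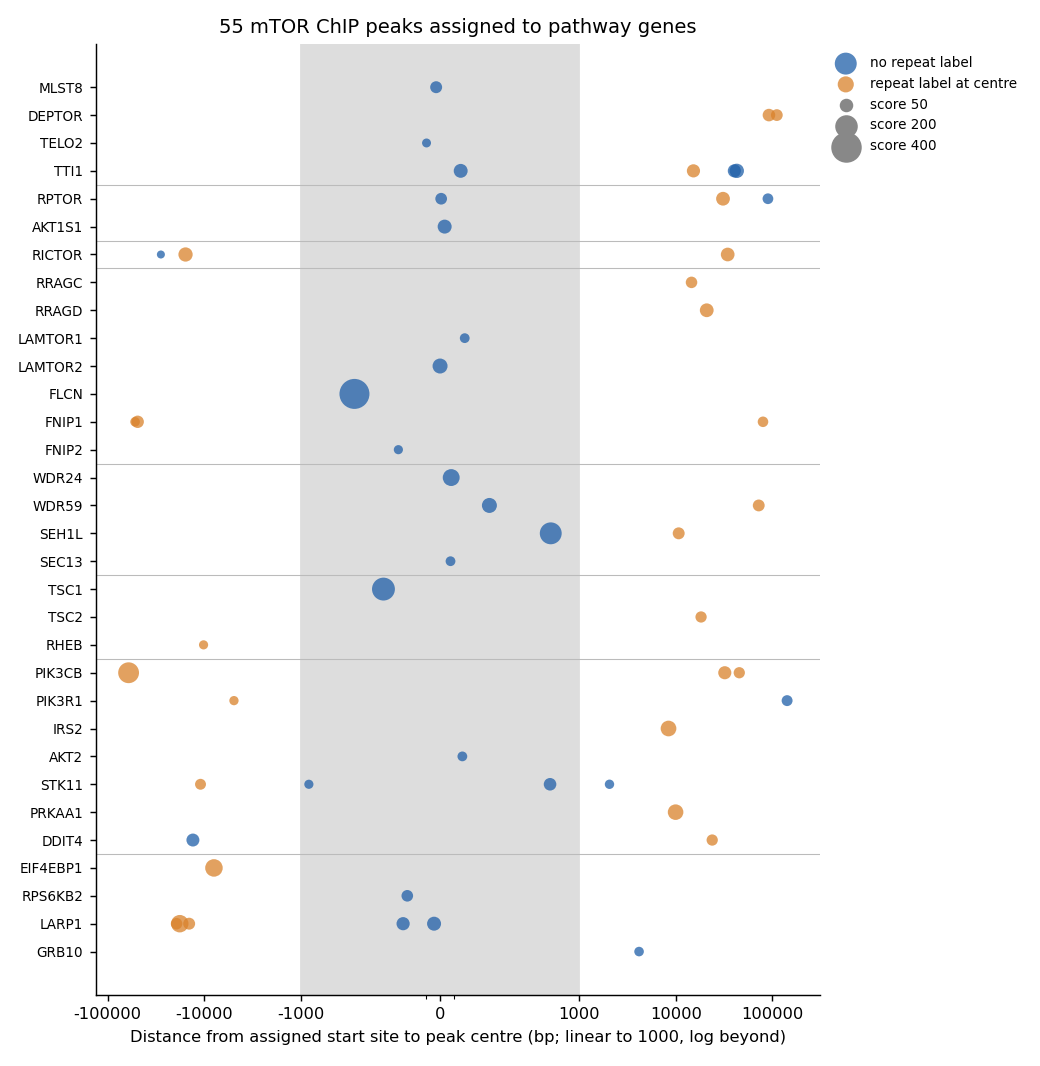
Distance from the assigned start site to the centre of each of the 55 peaks (linear to 1000 bp, log beyond), 1 row per gene in order of role, with point size by score and orange for a repeat label at the centre. The 20 promoter peaks, all centred within 1 kb, are blue, while 27 of the 35 peaks beyond are orange.

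Promoter sequences of 6 of these genes are shown because their peaks mark the ends of the range or hold the motif of interest. FLCN and TSC1 had the highest scores, RPTOR and TELO2 are a core subunit and the lowest score, and LAMTOR2 and RPS6KB2 hold matches to the motif of RONIN. Each sequence runs 5′ to 3′ in the direction of the gene over 250 bases before and 20 bases from the RefSeq start onward (RefSeq, GRCh38.p14). Capitals mark exact matches on either strand to any of 7 motifs, and, in LAMTOR2, matches with at most 1 mismatch to the RONIN motif:
FLCN (chr17:17237149-17237418, minus strand): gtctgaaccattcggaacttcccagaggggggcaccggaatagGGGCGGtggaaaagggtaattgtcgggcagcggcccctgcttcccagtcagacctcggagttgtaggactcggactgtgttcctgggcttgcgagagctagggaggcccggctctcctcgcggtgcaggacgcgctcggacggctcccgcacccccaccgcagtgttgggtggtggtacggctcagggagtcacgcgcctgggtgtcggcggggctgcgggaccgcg
TSC1 (chr9:132944597-132944866, minus strand): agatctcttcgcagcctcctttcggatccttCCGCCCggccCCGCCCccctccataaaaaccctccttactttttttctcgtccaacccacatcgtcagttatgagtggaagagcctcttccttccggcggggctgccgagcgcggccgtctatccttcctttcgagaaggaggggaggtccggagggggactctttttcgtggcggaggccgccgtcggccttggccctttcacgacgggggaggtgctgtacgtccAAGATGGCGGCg
LAMTOR2 (chr1:156054532-156054801, plus strand): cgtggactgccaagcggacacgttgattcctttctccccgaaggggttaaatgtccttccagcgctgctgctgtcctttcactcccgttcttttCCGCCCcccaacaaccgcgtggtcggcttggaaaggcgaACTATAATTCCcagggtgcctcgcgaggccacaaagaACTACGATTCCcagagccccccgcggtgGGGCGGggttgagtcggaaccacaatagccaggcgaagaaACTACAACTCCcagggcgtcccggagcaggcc
TELO2 (chr16:1493110-1493379, plus strand): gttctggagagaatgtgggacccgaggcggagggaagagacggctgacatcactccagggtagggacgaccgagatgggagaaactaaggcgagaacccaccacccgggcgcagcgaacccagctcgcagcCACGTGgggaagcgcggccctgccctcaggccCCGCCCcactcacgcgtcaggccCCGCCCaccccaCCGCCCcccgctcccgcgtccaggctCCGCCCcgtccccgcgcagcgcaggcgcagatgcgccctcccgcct
RPTOR (chr17:80544588-80544857, plus strand): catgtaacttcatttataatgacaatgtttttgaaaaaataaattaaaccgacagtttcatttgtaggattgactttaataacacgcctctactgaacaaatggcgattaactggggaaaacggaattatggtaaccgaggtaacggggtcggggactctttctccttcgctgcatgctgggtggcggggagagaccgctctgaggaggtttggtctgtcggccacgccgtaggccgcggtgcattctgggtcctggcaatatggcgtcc
RPS6KB2 (chr11:67428244-67428513, plus strand): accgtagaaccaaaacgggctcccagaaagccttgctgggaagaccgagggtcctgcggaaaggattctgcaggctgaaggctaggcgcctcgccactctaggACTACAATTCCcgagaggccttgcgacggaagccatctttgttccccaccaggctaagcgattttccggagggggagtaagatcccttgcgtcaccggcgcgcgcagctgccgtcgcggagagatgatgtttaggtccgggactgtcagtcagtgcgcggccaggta

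The core motif shared by RONIN and ZNF143, whose letters are the only capitals in the RPS6KB2 sequence, was searched on both strands in windows of 300 bases around RefSeq starts. The other motifs were the E-box CACGTG, the GC-box GGGCGG, the ETS motif CCGGAAGT, CCAAT and the consensus motifs of YY1, the longest run of capitals in TSC1, and NRF1. Of the 58 genes 50 matched such windows, 78 windows in all. Among these 50 genes RPS6KB2 was the only one with an exact match, beginning at -147 bp from its start and under its peak. AKT1S1, MLST8 and WDR24 had promoter peaks but no such window, so they were not searched. The motif was present in 68 of 22156 windows of protein-coding genes (0.307%) and in 28 of the 2244 that their own promoter peak touched (1.25%). LAMTOR2 had no exact match. With at most 1 mismatch, a setting chosen after the sequence had been seen, it held 3, beginning at -117, -80 and -12 bp, all under its peak. At this setting 5 of the 78 member windows held a match (6.41%), those of LAMTOR2, RPS6KB2, SESN2, TSC2 and WDR59, and of these only LAMTOR2 and RPS6KB2 had windows touched by their promoter peak. Such a match was found in 7.98% of protein-coding windows touched by a promoter peak and in 2.36% of all protein-coding windows. Of those 22156 windows 3 held 3 or more, with the LAMTOR2 window counted among them. The RPTOR window had no match to any of the 7 motifs and a GC content of 48.0%, the lowest of the 15 member windows touched by a promoter peak (median 68.0%). These matches describe letters and do not show that RONIN or any other factor was bound.

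None of the 20 promoter peaks (0%, up to 16.8%) had a repeat label at its centre, against 3.51% of promoter peaks over protein-coding genes. Among all peaks at members, only those classed as intronic or intergenic had such a label. Of the 20 promoter peaks 15 were in the deposited promoter class. How far the annotation class fixed this share was not tested, so the share does not show that these promoters lack repeats. The assigned start lay within the peak for 13 of the 20 (65.0%), against 56.2% over protein-coding genes. Their centres fell on both sides, with 9 upstream, 10 downstream and 1 on the start. The 20 promoter peaks had a median width of 485 bp, against 446 bp for promoter peaks of protein-coding genes. The widest belonged to LARP1, SEH1L, FLCN and TSC1, each over 1 kb. The share of protein-coding promoter peaks of that width was not counted. Some promoters are shared: the peaks of AKT1S1, LAMTOR2 and TTI1 were annotated on start sites of TBC1D17, UBQLN4 and RPRD1B. That was 3 of 15 member peaks in the deposited promoter class (20%, 4.33 to 48.1%), against 11.5% of such peaks over protein-coding genes. For these the peak cannot be given to 1 of the 2 genes.

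Away from promoters the assigned peaks mostly lay over repeats. Of 35 such peaks at 20 genes, 27 had a repeat label (77.1%, 59.9 to 89.6%), against 76.6% of such peaks over protein-coding genes, so the share was near the background. L1 retrotransposons held 14 of the 35 (40.0%), against 40.9%. Of these 14, 9 were older L1M elements and 5 belonged to the primate L1PA group, where over all non-promoter L1 peaks the L1PA group made up 49.7%. LTR elements held 8, Alu and MIR elements 2 each and a hAT-Tip100 DNA transposon 1. By position 23 of the 35 were intronic and 12 intergenic, and the intronic share of 65.7% (47.8 to 80.9%) stood beside 45.4% for protein-coding genes. Intronic here means in an intron of any gene, not only of the assigned one. The median score was 53 for the 35 peaks and 61 for such peaks over protein-coding genes.

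**Figure D4:**
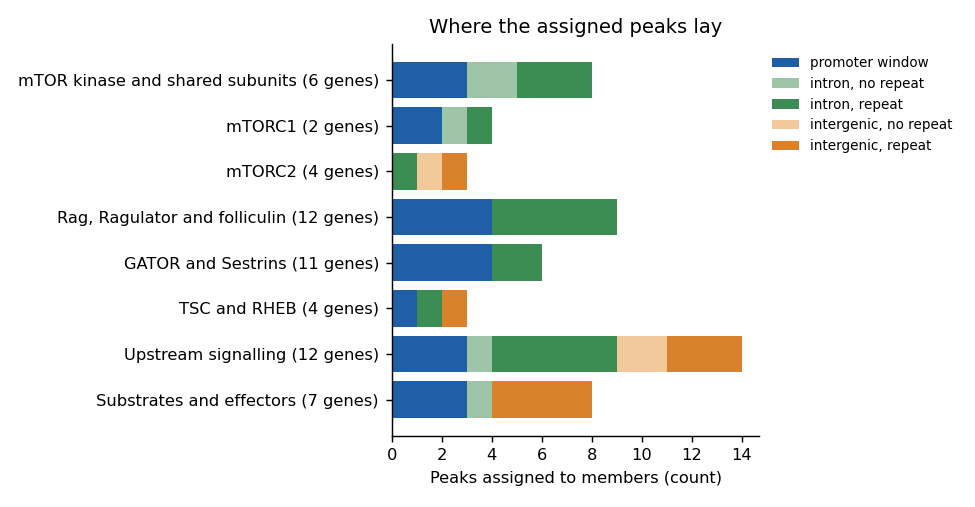
Number of assigned peaks in each role by position and repeat label, where promoter window means within 1 kb of the assigned start. Intronic repeat peaks make up 5 of the 9 peaks of the Rag, Ragulator and folliculin genes, with the FNIP1 peaks in an intron of MEIKIN included. Intergenic repeat peaks make up 4 of the 8 at substrates and effectors.

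Of the 14 genes with an assigned peak but no promoter peak, 10 had only repeat-labelled ones (71.4%), against 69.8% of such protein-coding genes, so this share too was near the background. PIK3CB, which encodes the catalytic PI3 kinase subunit p110 beta, had the highest, a peak of 202 in intron 2 over an MER52A element of the ERV1 family (chromosome 3, 138767860 to 138768598), with further peaks of 68 over L1MB8 and 45 over L1PA3. The peak of 137 assigned to EIF4EBP1 was intergenic, centred at -7.9 kb over the retroviral element MER11A (chromosome 8, 38022290 to 38022954). Upstream of LARP1 lay 3 intergenic peaks with scores of 136, 53 and 48 at -17.9, -14.3 and -19.3 kb from its start, over MSTB-int and MLT1D elements. IRS2, an adaptor of the insulin receptor, had a peak of 106 over a MIRc element in its single intron. PRKAA1, a catalytic AMPK subunit, had a peak of 104 in intron 1 over L1MA6. Both FNIP1 peaks upstream of the gene lay in an intron of MEIKIN.

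Peaks without a repeat away from promoters numbered 8. They were at TTI1 (2 in intron 7), RPTOR (39, intron 2), STK11 (25, intron 1), GRB10 (27, intron 1) and, in intergenic sequence, DDIT4 (66), PIK3R1 (41) and RICTOR (13). DDIT4 encodes REDD1, a stress-induced inhibitor of mTORC1, PIK3R1 the p85 alpha subunit of PI3 kinase, and GRB10 an adaptor that mTORC1 phosphorylates. None of the 8 scored above 85.

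Assignment by nearest start left 7 peaks inside member genes with another name or none. MTOR belongs here: its only peak, of score 87, lay in intron 29 over an L1PA5 element and was assigned to ANGPTL7 (chromosome 1, 11166732 to 11167046). A peak of 201 in intron 26 of RPTOR was assigned to LOC400627 (chromosome 17, 80946341 to 80947444) and ranked highest in that gene, above the promoter peak of 50. It lay over an L1MB3 element. SESN3 had a peak of 87 over L1PA7 and PRKAA2, the other catalytic AMPK gene, a peak of 100 over L1MEg, both in intron 1. GRB10 had one of 68 in intron 1 over L1PA8 with no gene named. A peak of 143 in LARP1, assigned to MIR1303 and classed at the end of that gene, had no repeat label. Only intronic and intergenic peaks at members had such a label, so its absence here does not show a lack of repeats. In all 5 of the 7 were intronic and over L1 elements. Over all 41 peaks inside the pathway genes, however assigned, 51.2% had a repeat label, against 57.8% of peaks inside protein-coding genes. For MTOR, SESN3 and PRKAA2 these were the only peaks.

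**Figure D5:**
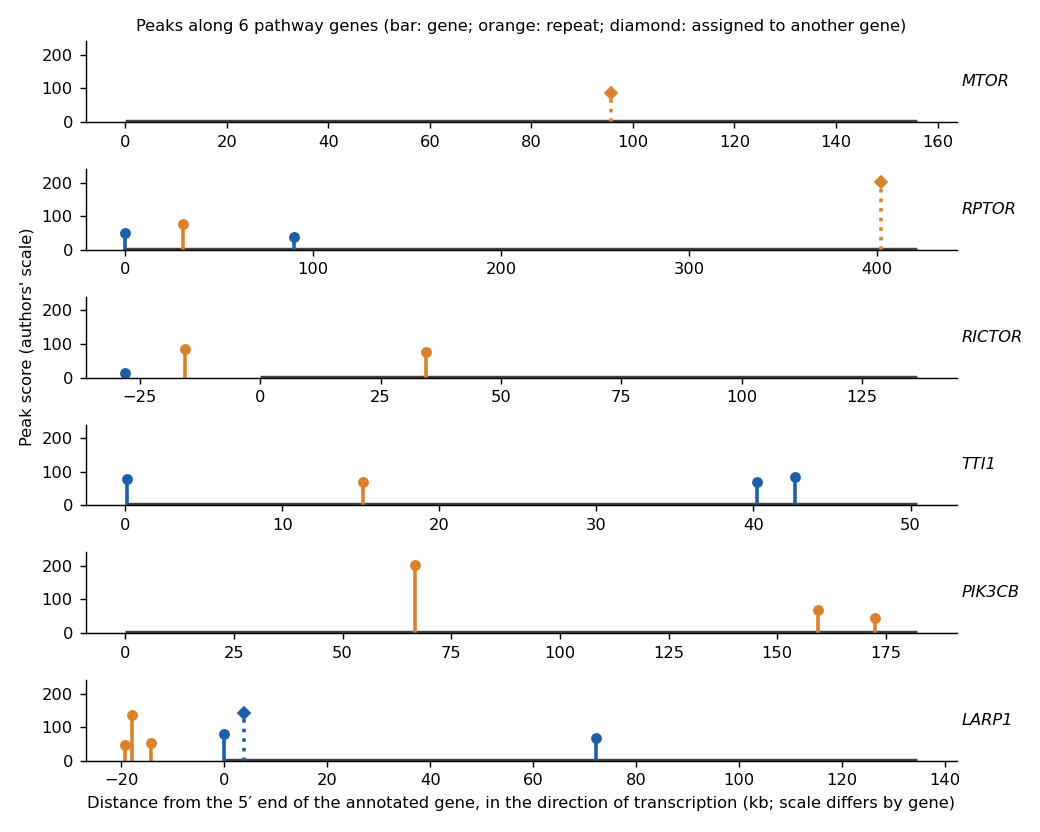
Score of each peak along 6 pathway genes against the distance from the 5′ end of the gene in the direction of transcription, with blue for no repeat label, orange for a repeat label and diamonds for peaks assigned to another gene. The single MTOR peak and the highest RPTOR peak, 87 and 201, are both orange diamonds deep inside the gene.

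A further 2 genes had a peak beside their start that was given to a neighbour. The peak of 216 at chromosome 3, 50350835 to 50351370, was annotated on an NPRL2 transcript but assigned to CYB561D2, whose start lay 240 bp from its centre. NPRL2 is a GATOR1 subunit, so GATOR1 counts 1 of 3 when this peak is included. On chromosome 8 a peak of 78 (33513598 to 33514534) was annotated on a TTI2 transcript and assigned to SNORD13. With any peak near a start counted, whatever its assigned gene, 20 of the 58 genes had one, a larger share than the 18.6% of protein-coding genes. Where a gene had no RefSeq start position, both of its ends were counted as starts, in members and in protein-coding genes alike.

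The remaining 21 genes had no peak in the gene, at its start or assigned to it. They were MAPKAP1, PRR5, PRR5L, RRAGA, RRAGB, LAMTOR3, LAMTOR4, LAMTOR5, DEPDC5, NPRL3, MIOS, SESN1, SESN2, TBC1D7, PIK3CA, IRS1, PDPK1, AKT1, EIF4EBP2, RPS6KB1 and SGK1. The nearest peak centre was 3.84 kb away for PRR5L and 8.64 kb for MAPKAP1, and 11 of the 21 had one within 50 kb. Neither the share of genes without a peak by this rule nor these distances were taken over all protein-coding genes. RRAGA and RRAGB, the 2 genes of the RagA and RagB group, were the farthest, at 514 and 1359.1 kb. RRAGB lies on the X chromosome. Since depth is unknown, a gene without a peak is one where none was called, not one shown to be unbound.

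Another 61 genes of the pathway were counted the same way. They include TBC1D7-LOC100130357, a readthrough locus of the member TBC1D7, which had no assigned peak. A promoter peak was found at 17 of the 61 (27.9%, 17.1 to 40.8%), against 15.5% of protein-coding genes. The highest were ATF4, a transcription factor of the amino acid stress response (416), TFEB, which mTORC1 keeps out of the nucleus (259), and EIF4E, the cap-binding protein held by 4E-BPs (159). PIK3R3, a PI3 kinase regulatory subunit, had 127, and GSK3A, a kinase inhibited by AKT, had 109. The insulin and IGF1 receptor genes INSR and IGF1R had 97 and 53. LPIN1, PIK3C3, SAR1B, MAF1, KICS2, PRKAG2, EEF2K, PRKCA, PHLPP1 and KPTN had scores from 91 down to 22, of which KICS2 (47) and KPTN (22) belong to the KICSTOR complex that places GATOR1 on lysosomes.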

How the data were processed

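One table of annotated peaks of the mTOR ChIP library was used. The submitters' processing notes name Trimmomatic 0.36, BWA 0.7.12, Picard 2.0.1, MACS2 2.1.1.20160309 and HOMER 4.11.1 with the build hg38. Neither their settings nor the treatment of duplicate and multiply aligned reads, which bears on peaks over repeats, is given in the sources used here. The authors deposited 1 score per peak, in whole numbers of unstated scale. Distances to start sites and positions were used as deposited.

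Members were matched by gene name, and a promoter peak had an edge within 1 kb of the start, as its width and the deposited distance gave it. Gene spans, identifiers (99.7% of peaks matched) and promoter windows came from RefSeq (GRCh38.p14). The 19974 protein-coding genes on chromosomes 1 to 22 and X served as background. The members and lists were chosen with earlier results of these data known. Every member is named, and 1 of the 7 peaks inside members but assigned elsewhere is not reported here. The motif search with 1 mismatch was added after the member promoters had been read. Other pathway genes are named when they had a promoter peak. Alternatives were start windows of 100 bp or 5 kb, promoters by the deposited class, the 10720 and 2144 top-scoring peaks, repeat peaks left out, peaks at a start whatever gene they were assigned to, a 10 kb limit and any overlap. The window rule of the promoter call was run on simulated peaks. That run checks only the arithmetic of the rule, not the deposited gene assignments or start sites. No significance tests were run. Intervals used scipy 1.17.1, figures matplotlib 3.10.9, and tables pandas 2.3.3 and numpy 2.4.6 under Python 3.11.15.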

Additional observations from a re-analysis of the deposited data

How the results depend on the processing

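The count of 18 genes with a promoter peak stayed between 14 and 20 under the other windows, the deposited class, the removal of repeat peaks and the use of any peak at a start. The removal of repeat peaks could not change it, because no member promoter peak had a repeat label. The higher-scoring 10720 peaks left 10 genes and the 2144 top-scoring peaks left 3. Genes named as nearest gene, 32 in all, numbered 19 and 4 in these smaller sets, 22 without repeat peaks and 23 within 10 kb. The 55 assigned peaks became 26 and 4 in the smaller sets and 28 without repeat peaks. The 41 peaks inside member genes became 26 and 4 in the smaller sets, 20 without repeat peaks and 45 with any overlap. Fewer peaks enter each smaller set by construction. No paired analysis was possible because there was 1 library per group. Read depth, and with it the number of peaks called, could not be assessed from a peak list.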

Other observations

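Other motifs in the member promoters are given as values. The E-box CACGTG, recognised by TFEB, MYC and USF proteins among others, was in 10 of the 78 member windows (12.8%), against 8.34% of the 22156 windows of protein-coding genes and 7.26% of all 35116 windows, and under the peaks of TELO2 only. The GC-box GGGCGG was in 56 of the 78 (71.8%), against 56.3% of protein-coding and 45.0% of all windows. The ETS motif CCGGAAGT was in 7 (8.97%), against 5.35% of protein-coding and 4.14% of all windows, and lay under the peaks of SEC13 and TTI1, in TTI1 at the start site on the opposite strand. The YY1 motif was in 2 (2.56%), against 1.18% of protein-coding and 0.849% of all windows, and under the TSC1 peak just downstream of the start. The NRF1 motif was in 2 (2.56%), against 1.5% of protein-coding and 1.24% of all windows, and CCAAT in 26 (33.3%), against 34.6% of both. Windows of 1 gene can overlap, the motifs were searched on both strands, GGGCGG can lie within longer matches, and member windows were richer in G and C, with a median of 67.2%, against 62.3% over protein-coding and 58.7% over all windows. The part of base composition in these shares was not tested.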
